A study of Mus musculus with 60 samples.

Results

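Nascent transcription in neural progenitor cells (NPCs) was examined 1 h after degradation of the cohesin subunit RAD21 had been triggered. The members are 4 of the 60 EU-seq libraries of the series, 2 controls and 2 libraries of cells kept in 500 µM indole-3-acetic acid (IAA) for 1 h, with counts limited to the first 90 kb of a gene. Genes with a mean count above 20 in either group were kept, which left 15860 of 27665 transcripts with 15041 gene symbols. Each transcript is called a gene below, so that a symbol with several transcripts counts more than once in totals over all genes. All 4 libraries came from GFP-AID-Rad21 cells, whose RAD21 protein carries a degron and is destroyed once IAA is added, and all share the batch label CC56. The NPCs had been made from mouse embryonic stem cells of this line by way of epiblast stem cells. Controls carry the same degron and are labelled as control, and the study's methods name DMSO as what cells received in place of a chemical. Cells were labelled with 0.5 mM 5-ethynyl uridine for 20 min before lysis, and the labelled RNA was captured and sequenced. Also used for direct comparisons were 2 libraries after 1 h of 10 µM A-485, which inhibits the acetyltransferases CBP and p300, and 2 each after 2 h and 4 h of IAA, all from the same cells.

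Cohesin is a ring of SMC1A, SMC3, RAD21 and a STAG subunit that extrudes chromatin loops until it meets CTCF, and loops can bring enhancers close to promoters. NIPBL and MAU2 load it, and WAPL and the PDS5 proteins govern its release. In neural progenitors, transcription factors of the SOX, ZIC and OLIG families and signalling by Notch, Wnt, Hedgehog and growth factors keep cells dividing and undifferentiated. Because EU-seq reads RNA made during a short pulse, it registers transcription itself before much of the stable RNA pool has turned over. The comparison asks which genes change their transcription soon after RAD21 is removed.

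Counts per library over the first 90 kb were 15666599 and 17730066 in the controls and 13863983 and 15654766 after IAA, and no library stood apart. Values below are library-scaled counts (CPM) after TMM normalization unless named otherwise, and each log2 fold change had its median over the 9847 expressed genes subtracted. The p-values test the fold changes before this subtraction, which was 0.026 on the log2 scale for IAA 1 h against control. Small printed rises therefore passed somewhat more easily than printed falls of the same size. Expressed genes had a mean above 15 TPM (counts per counted length, scaled to the library). A gene passed the test with an adjusted p under 0.05 in edgeR's quasi-likelihood test, and the stricter call also needs a 2-fold change. The sources used here do not say whether the 2 libraries of a group were separate cultures, so p-values measure the spread between libraries, which may be technical. Rad21 RNA does not check the labels, since the degron acts on the protein. Rad21 had 217 and 231 CPM in the controls and 241 and 225 CPM after IAA, and its groups overlapped (0.03 on the log2 scale, SE 0.04, edgeR adjusted p = 0.45).

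The labelled cell type was checked against marker genes. Of 15 neural progenitor markers, 13 passed the filter on low counts, and their summed level was 1854 and 1910 CPM in the controls and 1858 and 1754 CPM after IAA. Vim, Fabp7, Sox2, Nes and Olig2 were expressed at 1315, 801, 331, 251 and 218 TPM, whereas Hes5 and Nr2e1 did not pass the filter and Pax6 lay at 7.67 TPM. Of 10 markers of naive pluripotent cells, Pou5f1, Dppa5a, Dppa3 and Fgf4 did not pass the filter. The 6 others summed to 68.9 and 62.3 CPM in the controls, so not all such markers were absent. For epiblast stem cells 5 of 8 markers passed the filter (28.6 and 30.3 CPM), and for neurons 10 of 10 (271 and 265 CPM). Astrocyte and oligodendrocyte lists kept 5 of 6 and 6 of 6, at 348 and 329 and at 353 and 345 CPM in the controls. Markers of neural crest and mesenchyme were strongly expressed, with Col3a1 at 867 TPM, Col1a1 at 792 TPM and Twist1 at 245 TPM. Their summed level over the 7 of 8 that passed the filter was 3931 and 4284 CPM in the controls against 4300 and 3699 CPM after IAA, so the groups overlapped. Among these 7, Tfap2a, Twist1 and Prrx1 rose by 0.83, 0.44 and 0.15 on the log2 scale and Col1a2 fell by 0.31. In such bulk libraries, fewer cells of a type and less RNA per cell cannot be told apart, and the part of mesenchymal transcripts in the results was not tested.

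After 1 h of IAA, 1173 of the 15860 tested genes (7.4%) passed as lower and 1323 (8.34%) as higher. Most of these changes were small. Of the lower genes, 739 changed by less than 1.3-fold, 270 by 1.3- to 1.5-fold, 134 by 1.5- to 2-fold and 30 (0.189% of tested genes) by at least 2-fold. Of the higher genes, 950 changed by less than 1.3-fold, 172 by 1.3- to 1.5-fold, 138 by 1.5- to 2-fold and 63 (0.397%) by at least 2-fold. Among expressed genes, 625 passed as lower (6.35%) and 1107 as higher (11.2%), and 3 and 24 of them changed by at least 2-fold. DESeq2 passed 488 lower and 615 higher genes, and 1103 of the 2496 genes that passed with edgeR did so with both tools. Without control replicate 1, 708 genes were lower. The count of genes at least 2-fold lower was 7 with DESeq2, 5 with a mean count above 100, 47 without control replicate 2 and 50 without IAA replicate 2, and that of genes at least 2-fold higher was 42 with DESeq2 and 39 with a mean count above 100.

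**Figure D1:**
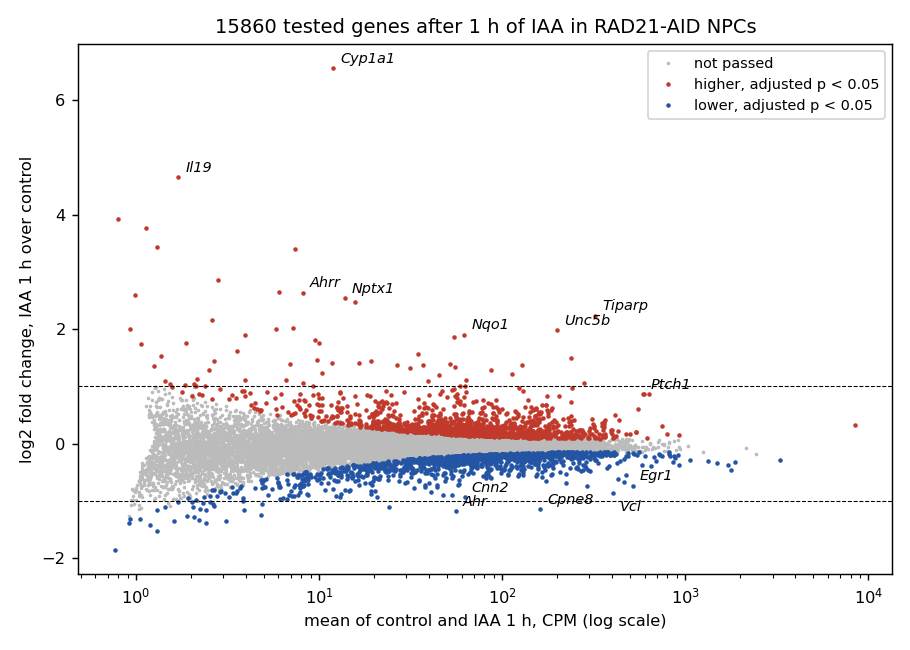
Each point is 1 of 15860 tested genes, with the mean of control and IAA 1 h libraries in CPM on a log axis and the log2 fold change of IAA 1 h over control on the vertical axis; dashed lines mark 2-fold changes. Genes past the test are red (1323 higher) or blue (1173 lower), and most lie between the dashed lines, with Cyp1a1 at 6.56 standing highest.

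The largest increase among tested genes was that of Cyp1a1, a cytochrome P450 that oxidises aromatic compounds and is the classical target of the aryl hydrocarbon receptor (AHR). AHR is a cytosolic receptor for planar aromatic ligands, indoles among them, that enters the nucleus on binding, pairs with ARNT and activates genes holding the core element GCGTG. Cyp1a1 (chr9:57697613-57703824, plus strand, mm10) had 4 counts in each control, 0.255 and 0.226 CPM, and 23.8 and 23.7 CPM after IAA. This is a log2 fold change of 6.56 (SE 0.23, adjusted p = 4.2e-14 by edgeR). Of 10 tested genes of the AHR pathway, 5 rose, 1 fell and 4 did not pass, against 8.34% higher and 7.4% lower over all tested genes. The median log2 fold change was 0.65 against -0.03 over all tested genes.

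Tiparp, which encodes a PARP that restrains the receptor, had 115 and 106 CPM in the controls and 527 and 536 CPM after IAA, which is 2.24 on the log2 scale (SE 0.04). Ahrr, the receptor's repressor, went from 2.36 and 2.09 to 13.1 and 14.96 CPM (log2 fold change 2.64, SE 0.18). Nqo1, a quinone reductase, went from 25.6 and 25.8 to 100.0 and 96.1 CPM (1.91, SE 0.06). Fosl2, an AP-1 subunit, rose by 1.37 on the log2 scale. In these genes both IAA libraries lay far above both controls, with little difference between the 2 libraries of a group. For Tiparp and Nqo1, the choice among the largest increases required groups without overlap. Ahr itself fell, from 78.9 and 75.7 CPM to 34.2 and 35.2 CPM, and at -1.18 on the log2 scale (SE 0.06, adjusted p = 2.6e-11 by edgeR) this was the largest decrease among expressed genes that passed. Ahr overlaps Gm48236 on the other strand, and since the use of strand in counting is not stated, their reads cannot be told apart. Arnt (-0.10, edgeR adjusted p = 0.27), Ugt1a6a and Ugt1a7c did not pass, and Cyp1a2, Aldh3a1 and Gsta1 had too few counts to be tested. Cells without the degron that had received IAA are not among the libraries used, so effects of IAA itself and of RAD21 loss cannot be told apart. The 2 libraries after A-485 had neither IAA nor a triggered loss of RAD21, so they cannot separate these effects either. Cyp1a1 had 0.263 and 0.0606 CPM there and Tiparp 56.2 and 56.0 CPM.

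Promoters of Cyp1a1, Ahrr and Tiparp are shown because these genes stand among the largest increases and are known targets of the receptor. Each sequence is the RefSeq promoter on GRCm38.p6 nearest to the start of the counted transcript, from 250 bases before to 50 bases after the start site, read 5′ to 3′ on the gene's own strand. Capitals mark GCGTG on either strand, so that the reverse match reads CACGC.
Cyp1a1, chr9:57697363-57697662, plus strand: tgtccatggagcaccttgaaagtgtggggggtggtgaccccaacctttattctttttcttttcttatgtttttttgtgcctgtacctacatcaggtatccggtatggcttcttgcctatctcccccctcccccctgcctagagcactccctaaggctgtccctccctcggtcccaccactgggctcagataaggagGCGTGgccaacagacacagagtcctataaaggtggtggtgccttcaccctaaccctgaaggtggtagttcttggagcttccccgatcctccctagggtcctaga
Ahrr, chr13:74292282-74292581, minus strand: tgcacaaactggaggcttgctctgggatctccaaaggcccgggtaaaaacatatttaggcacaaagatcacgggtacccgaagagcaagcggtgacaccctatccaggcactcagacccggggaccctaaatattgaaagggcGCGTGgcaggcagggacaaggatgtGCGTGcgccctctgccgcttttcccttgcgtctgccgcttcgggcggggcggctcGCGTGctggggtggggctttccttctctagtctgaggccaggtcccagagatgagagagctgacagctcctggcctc
Tiparp, chr3:65528197-65528496, plus strand: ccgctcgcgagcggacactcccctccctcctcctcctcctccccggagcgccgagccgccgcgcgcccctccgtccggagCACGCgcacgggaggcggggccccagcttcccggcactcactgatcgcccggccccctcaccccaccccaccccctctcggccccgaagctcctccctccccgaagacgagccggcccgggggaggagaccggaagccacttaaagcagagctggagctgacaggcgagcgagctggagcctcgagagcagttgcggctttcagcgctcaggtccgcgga
The Cyp1a1 promoter holds 1 match that begins 54 bases before the start site, Ahrr holds 3, at 107, 82 and 27 bases before it, and Tiparp holds 1, at 170 bases before it. The Nqo1 promoter of the same length holds none, and bases outside this stretch were not searched. The motif is common. It was found in 32.4% of all 32817 RefSeq promoters of this length, in 50.7% of the 11367 tested genes with a promoter in the table and in 4 of the 8 such genes of the AHR list. Among genes that rose the share was 55.3%, among those that fell 49.7% and among those at least 2-fold higher 39.1%.

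The other increases among the 12 largest of expressed genes held guidance and signalling genes. Nptx1, a secreted pentraxin that gathers glutamate receptors at synapses, had 4.09 and 3.89 CPM in the controls and 23.1 and 24.0 CPM after IAA (log2 fold change 2.54, SE 0.14, edgeR adjusted p = 2.0e-11). Unc5b, a netrin receptor in axon guidance and vessel branching, went from 77.1 and 81.0 to 316 and 322 CPM (1.98, SE 0.04). Sema3f, a secreted guidance cue, went from 17.0 and 17.5 to 51.2 and 53.1 CPM (1.57, SE 0.08). Slc14a1 (a urea transporter), Zfp36l2 (an RNA-binding protein that promotes mRNA decay), Bmp2 (a bone morphogenetic protein) and Ptx3 (a pentraxin of innate immunity) rose by 1.86, 1.498, 1.402 and 1.39 on the log2 scale. For each of these genes the IAA libraries lay above both controls, which the choice of genes required. Ptx3 lies within Veph1 on the other strand, and Veph1 also rose (1.33), so which of them gave the reads is uncertain.

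**Figure D2:**
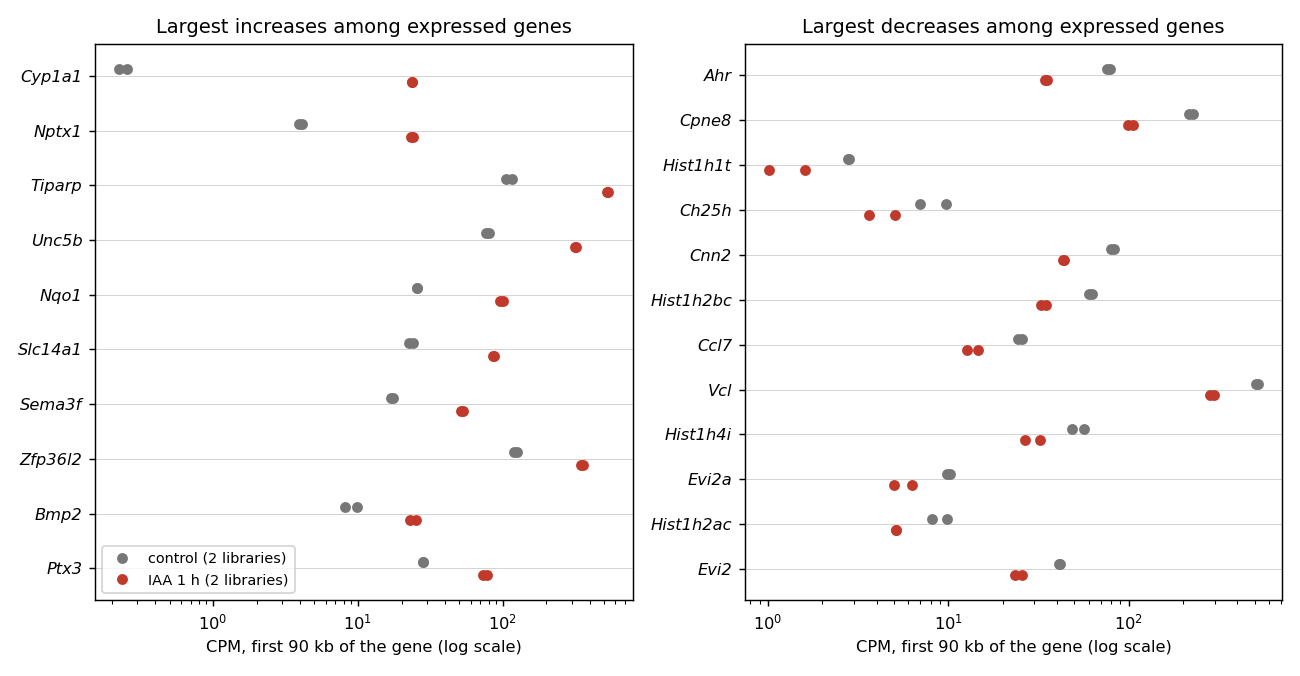
Each point is 1 library, with CPM over the first 90 kb of the gene on a log axis, for 10 of the 12 largest increases and the 12 largest decreases among expressed genes that passed the test; grey points are the 2 controls and red points the 2 IAA 1 h libraries. Replicates sit close together, and the groups do not overlap in any of the 22 genes because the choice of genes required it.

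Among decreases, Cpne8, a calcium-dependent membrane-binding copine, had 226.3 and 217 CPM in the controls and 98.6 and 106 CPM after IAA (log2 fold change -1.14, SE 0.05, edgeR adjusted p = 4.0e-13). Cpne8 (chr15:90487483-90679432, mm10) spans 192 kb, so that its values cover only the first part of the gene. Cnn2, an actin-binding calponin, fell from 79.6 and 82.9 to 43.9 and 43.2 CPM (-0.93, SE 0.06). Vcl, which encodes vinculin of focal adhesions, fell from 522 and 510 to 296 and 283 CPM (-0.86, SE 0.04). Ccl7, a monocyte-attracting chemokine, fell from 25.5 and 24.4 to 12.7 and 14.7 CPM (-0.88, SE 0.11). Ch25h, cholesterol 25-hydroxylase, had 9.77 and 6.94 CPM in the controls and 3.63 and 5.05 CPM after IAA (-0.95, SE 0.20), a wider spread than in the genes above, and without control replicate 1 it no longer passed (adjusted p = 0.052). Evi2 and Evi2a (-0.78 and -0.85) overlap each other and lie on the strand opposite to Nf1, and their reads cannot be assigned with certainty. Vcl overlaps Ap3m1 on the other strand.

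The remaining 4 of the 12 largest decreases were histone genes, Hist1h1t, Hist1h2bc, Hist1h4i and Hist1h2ac. Replication-dependent histone genes supply new nucleosomes in S phase and lie in clusters. Their copies are nearly identical, so reads may be split or lost between them. Of 57 tested clustered histone genes, a list chosen after these values were seen, 23 fell, none rose and 34 did not pass. Over all tested genes 7.4% fell and 8.34% rose. The median log2 fold change of the list was -0.37. Hist1h1c had 230 and 190 CPM in the controls and 122 and 149 CPM after IAA (-0.65, SE 0.08). Hist1h1t had 2.81 and 2.76 against 1.02 and 1.599 CPM, and without IAA replicate 1 it did not pass (edgeR adjusted p = 0.16). The summed level of the list was 2194 and 1819 CPM in the controls and 1388 and 1618 CPM after IAA, so the 2 libraries within each group differed by more than control replicate 2 did from IAA replicate 2. Leaving out control replicate 1 left 13 lower genes (median -0.22), and leaving out control replicate 2 gave 30 (median -0.51). DESeq2 gave 11.

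Vcl and Cnn2 belong to a set of actin cytoskeleton genes that, with the transcription factor Srf, was put together after these values were seen. SRF binds the CArG box and controls many genes of actin filaments and adhesion. Of 28 tested genes of this set, 16 fell, 1 rose and 11 did not pass, against 7.4% lower and 8.34% higher over all tested genes. The median log2 fold change of the set was -0.33. Srf fell from 57.5 and 56.0 to 41.5 and 39.6 CPM (-0.51, SE 0.06). Fhl2 (a LIM-domain protein), Wdr1 (a cofactor of actin disassembly), Actg1 (gamma-actin), Tpm1 (a tropomyosin) and Myh9 (non-muscle myosin) fell by 0.68, 0.53, 0.56, 0.43 and 0.34 on the log2 scale. Actb fell by 0.22. Tagln2 was the gene that rose (0.27), and Cfl1, Tln1, Tpm3 and Cnn3 lay between -0.08 and 0.05 and did not pass. With each library left out in turn 12 to 15 of the set fell, with DESeq2 11 and in a fit over 6 libraries, which adds the A-485 pair, 10.

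Promoters of Srf, Cnn2, Vcl and Actg1 are shown because they hold the CArG box, marked in capitals, and because these genes fell together.
Srf, chr17:46556113-46556412, minus strand: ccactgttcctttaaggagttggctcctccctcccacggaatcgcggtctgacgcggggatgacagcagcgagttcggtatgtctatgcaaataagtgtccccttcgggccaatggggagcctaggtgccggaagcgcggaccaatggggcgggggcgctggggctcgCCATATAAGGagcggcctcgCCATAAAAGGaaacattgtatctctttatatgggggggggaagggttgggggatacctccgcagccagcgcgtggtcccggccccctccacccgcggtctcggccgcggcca
Cnn2, chr10:79988350-79988649, plus strand: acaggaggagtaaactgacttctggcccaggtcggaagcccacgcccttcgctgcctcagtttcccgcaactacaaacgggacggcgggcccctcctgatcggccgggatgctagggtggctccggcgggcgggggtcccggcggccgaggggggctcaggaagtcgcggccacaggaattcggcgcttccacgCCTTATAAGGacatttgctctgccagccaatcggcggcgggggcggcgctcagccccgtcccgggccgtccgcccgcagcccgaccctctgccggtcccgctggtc
Vcl, chr14:20929148-20929447, plus strand: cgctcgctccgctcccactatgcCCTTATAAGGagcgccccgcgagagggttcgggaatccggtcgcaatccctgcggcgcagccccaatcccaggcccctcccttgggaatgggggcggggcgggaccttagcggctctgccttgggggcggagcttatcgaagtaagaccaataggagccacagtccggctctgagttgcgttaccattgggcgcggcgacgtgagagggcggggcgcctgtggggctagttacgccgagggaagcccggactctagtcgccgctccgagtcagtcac
Actg1, chr11:120348446-120348745, minus strand: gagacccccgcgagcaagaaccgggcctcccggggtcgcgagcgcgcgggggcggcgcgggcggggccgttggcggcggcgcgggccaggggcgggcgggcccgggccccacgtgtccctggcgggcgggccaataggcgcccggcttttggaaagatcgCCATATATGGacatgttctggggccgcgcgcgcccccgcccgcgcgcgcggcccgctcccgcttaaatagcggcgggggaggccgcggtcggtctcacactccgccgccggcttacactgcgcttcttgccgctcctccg
Srf holds 2 boxes, beginning 82 and 62 bases before the start site, Cnn2 holds 1 at 56 bases, Actg1 1 at 90 bases and Vcl 1 at 227 bases before it. The box reads the same way on both strands. It was found in 6 of 25 promoters of the set and in 1.63% of all RefSeq promoters. The set was drawn from genes known as SRF targets, so this share is a description. Among tested genes the share was 1.26%, among genes that fell 2.18% and among genes that rose 1.27%.

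Immediate early genes, which growth factors switch on within minutes, moved in both directions. Of 26 tested, 5 fell, 8 rose and 13 did not pass (median 0.04), against 7.4% lower and 8.34% higher over all tested genes. Fos, an AP-1 subunit, had 56.5 and 53.8 CPM in the controls and 29.7 and 36.3 CPM after IAA (log2 fold change -0.76, SE 0.08, edgeR adjusted p = 9.8e-07). Egr1, a zinc-finger factor, had 671 and 608 against 328 and 454 CPM (-0.73, SE 0.09), and its IAA libraries lay far apart but below both controls. Myc fell from 80.9 and 74.5 to 58.3 and 60.9 CPM (-0.40, SE 0.06), and Btg2, an antiproliferative gene, fell by 0.32. Maff (a small MAF factor), Klf10, Junb, Atf3 and Klf4 rose by 0.62, 0.46, 0.59, 0.87 and 0.59. Junb showed the wider spread, with 34.8 and 31.1 CPM in the controls and 42.2 and 58.4 CPM after IAA. Jun, Ier2 and Dusp1 did not pass. DESeq2 gave 5 lower and 4 higher of this list, leaving out IAA replicate 2 gave 7 and 5, and the fit over 6 libraries gave 5 of each. The Fos promoter of the same length holds no CArG box, but bases outside this stretch were not searched, so a box further from the start site could have been missed.

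Genes of ERK feedback were as divided. Of 16 tested, 4 fell, 4 rose and 8 did not pass, where 7.4% of all tested genes fell and 8.34% rose. Errfi1, an inhibitor of the EGF receptor, fell from 361 and 360 to 217 and 224 CPM (-0.74, SE 0.04), while Dusp4, a phosphatase of ERK, rose from 85.1 and 93.1 to 172 and 173 CPM (0.92, SE 0.05) and Dusp5 rose by 0.65. The ERK inhibitors Spry2, Spred1 and Spry1 fell by 0.24, 0.19 and 0.18. Phlda1 and Etv4 rose by 0.25 and 0.16. Dusp6, with 860 and 772 CPM in the controls and 791 and 798 CPM after IAA, did not pass. With either control replicate left out, and in the fit over 6 libraries, 2 of the 4 lower calls were left and Spred1 was not one of them.

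Of the neural progenitor transcription factors, 12 of 29 tested rose, none fell and 17 did not pass. Over all tested genes 8.34% rose and 7.4% fell. The median log2 fold change of these factors was 0.18. Sox21, which restrains SOX2 targets, had 20.8 and 19.3 CPM in the controls and 38.9 and 37.9 CPM after IAA (0.91, SE 0.08, edgeR adjusted p = 6.7e-08), though it overlaps Gm4675 on the other strand. Zic2 went from 119 and 115 to 170 and 159 CPM (0.46, SE 0.05). Sox4 and Sox11, the SoxC factors of neuronal differentiation, rose by 0.41 and 0.31, Sox2, which maintains progenitors, by 0.41, and Nr2f1 by 0.29. Nfia, Meis1, Pou3f2, Zic1, Sox1 and Otx2 rose by 0.14 to 0.37. Olig1, Olig2, Sox9 and Pax6 had log2 fold changes of 0.09 to 0.23 and did not pass. The lowest value of the list was -0.65, which did not pass either. Leaving out each library in turn gave 8 to 13 that rose and none that fell. With DESeq2 and in the fit over 6 libraries 8 rose. Without a filter on low counts 13 of 32 rose and 1 fell. Of the 13 tested neural progenitor markers, 2 rose (Sox2 and Sox1), 3 fell and 8 did not pass, with a median of -0.01. The 3 that fell were Egfr, Ptprz1 and Slc1a3, a growth factor receptor, a receptor phosphatase and a glutamate transporter, at -0.42, -0.56 and -0.38 on the log2 scale.

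**Figure D3:**
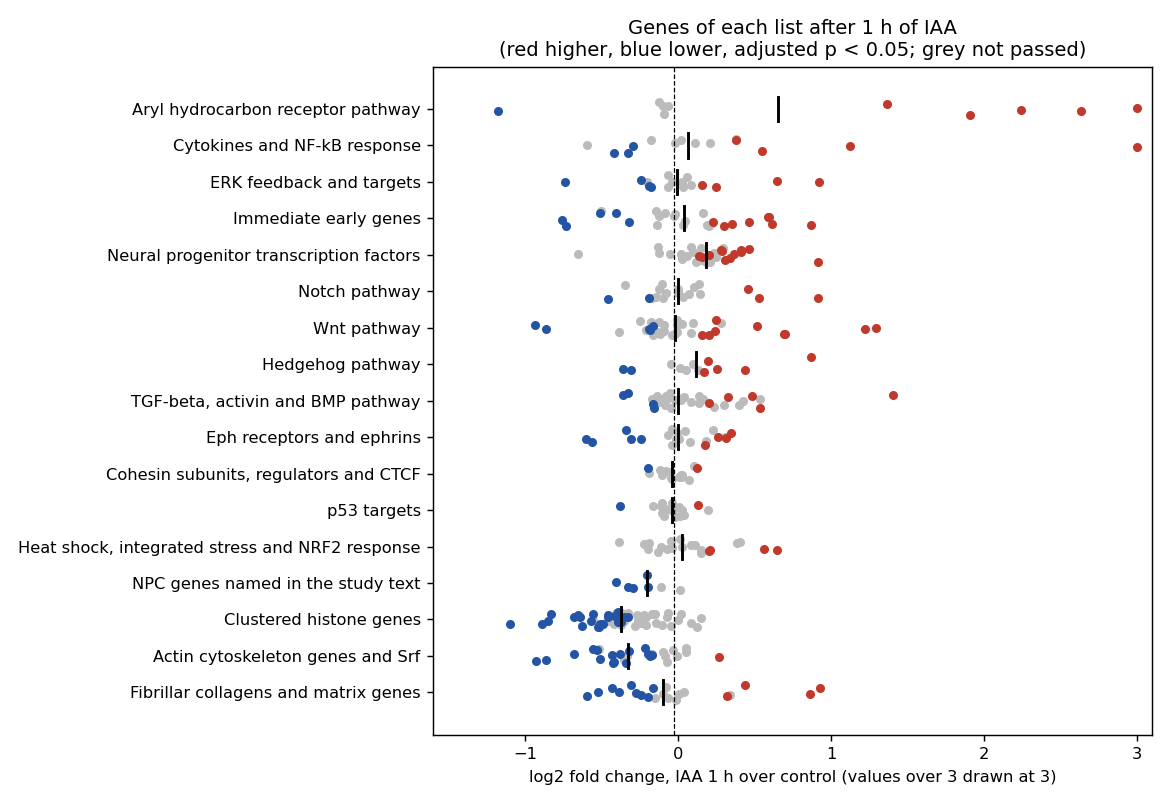
Log2 fold changes of IAA 1 h over control for the tested genes of each list, 1 point per gene, with a black bar at the median of the list and a dashed line at the median of all tested genes (-0.03); Cyp1a1 (6.56) and Il19 (4.65) are drawn at 3. Red points rose, blue points fell and grey points did not pass, and the neural progenitor factors hold no blue point while the histone genes hold no red one.

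In the Notch pathway, 3 of 20 tested genes rose and 2 fell, where 8.34% and 7.4% of all tested genes did so, and with DESeq2 1 rose and 1 fell. Hes1, the repressor that carries out much of Notch signalling, went from 46.8 and 40.9 to 83.9 and 83.6 CPM (0.91, SE 0.06, edgeR adjusted p = 9.8e-10). Heyl and Hey1, related targets at low levels, rose by 0.53 and 0.46. The receptor gene Notch2 and the coactivator gene Maml2 fell by 0.19 and 0.46, and both are longer than 90 kb. The ligand genes Dll1, Dll3, Jag1 and Jag2 and the receptor gene Notch1 did not pass. The calls of Heyl, Hey1 and Notch2 were lost with DESeq2, and 1 gene rose without control replicate 1 or without IAA replicate 1.

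In the Wnt pathway, 9 of 33 tested genes rose and 5 fell, against 8.34% and 7.4% of all tested genes. Among ligands, Wnt7a fell from 28.6 and 25.4 to 14.5 and 14.2 CPM (-0.93, SE 0.10), Wnt3 fell by 0.86 at a level near 4 CPM in the controls, and Wnt5a rose by 0.24. Among receptors, Fzd7 rose from 68.7 and 62.0 to 113 and 103 CPM (0.70, SE 0.06), Fzd8 by 0.51, Fzd2 by 0.20 and the co-receptor gene Ror1 by 0.69. Of the targets that feed back on the pathway, Axin2 rose from 67.2 and 67.6 to 154 and 166 CPM (1.22, SE 0.05, edgeR adjusted p = 2.7e-13) and Sp5 from 1.41 and 1.47 to 3.34 and 3.84 CPM (1.29, SE 0.27), whereas Znrf3, which removes Wnt receptors, fell by 0.19 and Nkd1, Lgr5, Lef1 and Rnf43 did not pass. Apc and Tcf7l1 fell by 0.17 and 0.18. With either control replicate or IAA replicate 1 left out 2 were lower, and DESeq2 gave 1 lower and 5 higher.

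In the Hedgehog pathway, 5 of 12 tested genes rose and 2 fell, against 8.34% and 7.4% of all tested genes. Ptch1, which encodes the receptor and is a target of the pathway, is listed with 2 overlapping transcripts, the shorter of which lies mostly within the longer, so that their reads may be shared. The longer had 411 and 411 CPM in the controls and 750 and 779 CPM after IAA (0.87, SE 0.04) and the shorter 183 and 178 against 368 and 397 CPM (1.06, SE 0.04). The ligand gene Shh rose by 0.44, the effector gene Gli2 by 0.20 and the co-receptor genes Boc and Gas1 by 0.17 and 0.26. The co-receptor gene Cdon and the ligand trap Hhip fell by 0.36 and 0.31. Gli1, a further target, had 56.0 and 51.2 CPM in the controls and 59.3 and 60.0 CPM after IAA and did not pass (0.13, edgeR adjusted p = 0.094). In the fit over 6 libraries 3 rose and 1 fell, and with DESeq2, or with control replicate 2 or either IAA replicate left out, 1 fell.

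Of 34 tested genes of TGF-beta, activin and BMP signalling, 5 rose, 4 fell and 25 did not pass. The shares over all tested genes were 8.34% higher and 7.4% lower, so these counts are not far above them. The ligand gene Bmp2 had 9.84 and 8.12 against 22.9 and 25.1 CPM, Smad3 rose from 143 and 146 to 208 and 218 CPM (0.53, SE 0.04), and Smad7, an inhibitor that the pathway induces, rose by 0.48. Tgfb1 and Bmp7 rose by 0.32 and 0.20. Inhba, an activin subunit, fell from 75.05 and 81.8 to 66.9 and 60.9 CPM (-0.33, SE 0.06), and Tgfb2, Tgfbr2 and Bmpr1b fell by 0.16, 0.16 and 0.36. The BMP targets Id1, Id2, Id3 and Id4 did not pass. The 4 lower calls became 1 without control replicate 2 and 2 without any other single library, and DESeq2 gave 1 lower and 3 higher, without Bmp7 and Tgfb1.

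Eph receptors and ephrins, which sort cells by contact, gave 5 lower and 4 higher of 20 tested genes (7.4% and 8.34% of all tested genes). Epha3 and Ephb1 fell by 0.56 and 0.60, Epha2, Epha1 and Ephb2 by 0.34, 0.31 and 0.24, and Ephb3, Ephb4, Efna4 and Efna3 rose by 0.26, 0.18, 0.31 and 0.34. Epha3 and Ephb1 are longer than 90 kb. The lower calls became 2 without control replicate 1 and 3 without IAA replicate 2, and the higher calls became 1 without control replicate 2. DESeq2 gave 2 lower and 1 higher, with Epha2, Ephb4 and Efna4 among the lost calls. Of 14 tested cytokines and NF-kB response genes, 4 rose and 3 fell, against the same shares of all tested genes. Birc3, an inhibitor of apoptosis that NF-kB induces, went from 40.4 and 38.5 to 83.1 and 91.2 CPM (1.12, SE 0.06), Ptgs2 (cyclooxygenase-2) rose by 0.55 and Lif by 0.38. Il19 had 4 counts in 1 control, 0 in the other and 3.48 and 3.07 CPM after IAA. Csf1, Ccl2 and Icam1 fell by 0.42, 0.32 and 0.30. The 3 lower calls became 1 without control replicate 1, with DESeq2 and in the fit over 6 libraries, with Ccl2 lost in each. Nfkbia, the feedback inhibitor of NF-kB, did not pass (0.02), and Il6, Tnf, Il1b and 6 others of the list had too few counts to be tested.

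Of 21 tested genes of the heat shock, integrated stress and NRF2 responses, 4 rose and none fell.  Over all tested genes 8.34% rose and 7.4% fell. Gclc, of glutathione synthesis, went from 110 and 111 to 177 and 175 CPM (0.65, SE 0.04), and Ddit4, an inhibitor of mTORC1, from 63.0 and 61.5 to 91.1 and 95.5 CPM (0.56, SE 0.05). Phgdh and Hmox1 rose by 0.20 and 0.21, but neither passed with DESeq2 or without control replicate 1, which left 2 that rose, while 6 rose without control replicate 2. The heat shock genes Hspa8, Hsph1, Hspa1a and Dnajb1 and the stress factors Atf4 and Ddit3 did not pass. Of 17 tested p53 targets, Mdm2, the ubiquitin ligase of p53, fell from 649 and 658 to 507 and 516 CPM (-0.38, SE 0.04), Cdkn1a rose by 0.13 and 15 did not pass. Among 15 cohesin subunits, regulators and CTCF, Pds5a fell by 0.20, Smc3 rose by 0.13 and 13 did not pass. Ctcf had 235 and 236 CPM in the controls and 245 and 242 CPM after IAA, and neither call of this list passed in the fit over 6 libraries. Over all tested genes 7.4% were lower and 8.34% higher. For the p53 and cohesin lists, 1 call each way is about what these shares give.

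A list of matrix genes, put together after these values were seen, gave 9 lower and 4 higher of 21 tested (7.4% and 8.34% of all tested genes). Col6a3 went from 432 and 462 to 836 and 822 CPM (0.86, SE 0.04), Loxl1, a lysyl oxidase, rose by 0.93 and Col5a1 by 0.43. Fn1 (fibronectin), Col11a1, Loxl4 and Col18a1 fell by 0.39, 0.52, 0.59 and 0.43. The abundant Col3a1, Col1a1 and Sparc did not pass. In the fit over 6 libraries 4 were lower and 4 higher.

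Of the 7 genes that the study names for NPCs and that are in the table, 5 fell and none rose, with a median of -0.20. Over all tested genes 7.4% fell and 8.34% rose. The study chose them on libraries of this series, so the count is not independent evidence of direction. Besides Myc and Inhba these were Kitl, which encodes stem cell factor, with 148 and 151 CPM in the controls and 125 and 124 CPM after IAA (-0.29, SE 0.04), Enc1, an actin-binding kelch protein, with 412 and 406 against 366 and 360 CPM (-0.20, SE 0.04), and Fbn2, a fibrillin of the matrix, which fell by 0.19. With either control replicate left out 4 fell, and in the fit over 6 libraries, where Enc1 and Fbn2 did not pass, 3 did. Tnfrsf21, a death receptor, had 253 and 243 against 227 and 238 CPM and did not pass (edgeR adjusted p = 0.15). Gli3, the main Hedgehog repressor, had 362 and 349 against 358 and 370 CPM (0.01). Zfp608 was not analysed here. Of 5 genes chosen because they lay lowest at 2 h or 4 h against these same controls, Cpne8, Wnt7a, Ccdc85a and Hpgd were lower and Prdm1 did not pass. The controls are shared, so these counts are a description and are not to be read against the shares of all tested genes.

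The decreases were unevenly spread over gene length. The median length was 92.4 kb for genes that fell, 20.6 kb for genes that rose and 23.7 kb for all tested genes, and 51.8% of the genes that fell were longer than 90 kb against 10.7% of those that rose and 15.7% of all. The median log2 fold change was 0.00 for genes up to 5 kb, 0.02 at 10 to 20 kb, -0.07 at 50 to 90 kb, -0.12 at 90 to 200 kb and -0.19 above 200 kb. Of 819 genes longer than 200 kb, 24.8% passed as lower and 4.03% as higher, and of 3051 genes of 10 to 20 kb, 2.29% and 11.01%. For genes above 200 kb the medians of the 4 pairings of an IAA with a control library ran from -0.17 to -0.14, while the 2 controls differed by a median of -0.02 and the 2 IAA libraries by 0.01. Among expressed genes the median was -0.11 at 90 to 200 kb and -0.07 above 200 kb, so the trend was smaller there in the longest genes. Genes above 90 kb were counted in their first 90 kb only. Levels of these genes also differ from those of short genes, and the part of level in the trend was not tested. With the trend of fold change on length removed, 21 genes were at least 2-fold lower and 61 at least 2-fold higher.

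**Figure D4:**
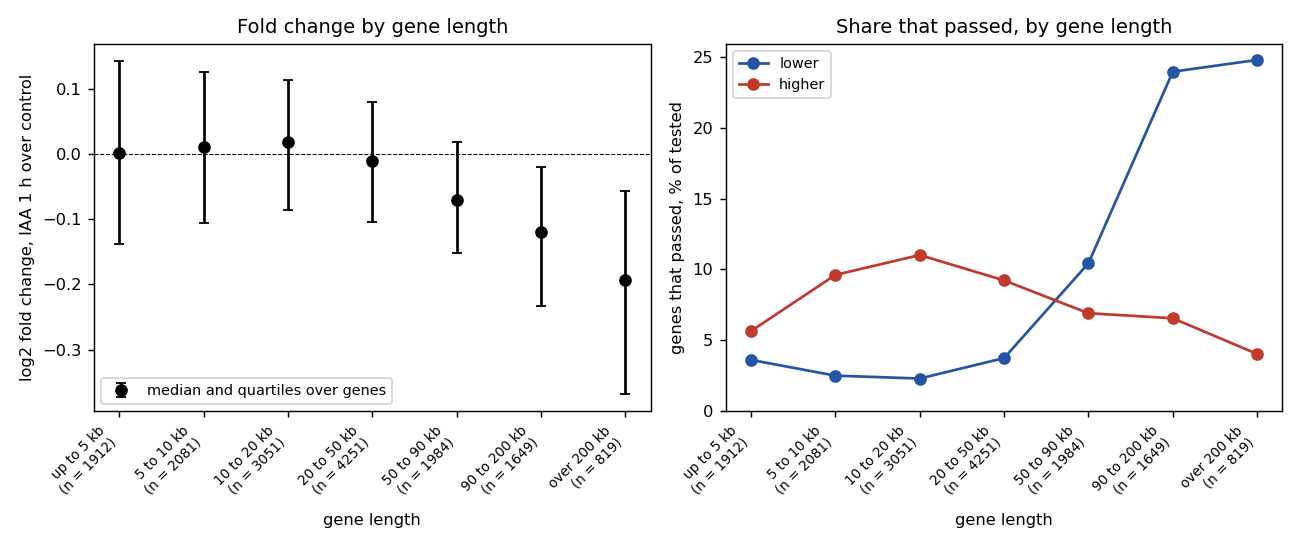
Left, the median log2 fold change of IAA 1 h over control in 7 classes of gene length, with bars from the lower to the upper quartile over genes; right, the share of tested genes in each class that passed as lower (blue) or higher (red), in %. The medians fall from 0.02 at 10 to 20 kb to -0.19 above 200 kb, and the lower share rises from 2.29% to 24.8%.

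Gene by gene, the 1 h libraries were set against the 2 libraries after 1 h of A-485, counted in the same way. A-485 was lower in 5475 of 15882 tested genes (34.5%) and higher in 4907 (30.9%), and in 3037 (19.1%) it was at least 2-fold lower. The TMM scaling assumes that most genes do not change, which bears on small differences in this comparison, and the raw median over expressed genes was 0.09. The genes with the smallest p among those that had passed at 1 h were Ptch1, at 30.8 and 34.8 CPM after A-485 and -4.74 on the log2 scale against IAA, and Runx1t1, a transcriptional corepressor, at 3.41 and 2.91 CPM and -5.70. In the other direction were Clpb, Melk and Ddhd2, higher after A-485 than after 1 h of IAA by 0.67, 0.64 and 0.66. The 1 h libraries also served to choose these genes, so each difference includes the change at 1 h against the controls. That change was 0.87 for Ptch1, -0.31 for Runx1t1, and -0.26, -0.22 and -0.28 for Clpb, Melk and Ddhd2. Egr1 was higher after A-485, at 1062 and 979 CPM (1.18, edgeR adjusted p = 1.1e-06), Fos was lower by a log2 fold change of -0.40, and Hist1h4i did not differ beyond its error (-0.01, edgeR adjusted p = 0.51). Of the genes that the study names for NPCs, Gli3 was at 66.8 and 55.6 CPM after A-485 (-2.77), and Myc at 6.50 and 5.88 CPM (-3.47).

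The 2 h and 4 h libraries were set against those at 1 h directly. Their counts exist over whole genes only, so this was done for genes whose control counts are the same with and without the 90 kb limit. At 2 h, 161 of 13163 genes (1.22%) were lower and 20 (0.152%) higher than at 1 h, and at 4 h 1465 of 13378 (11%) were lower and 1091 (8.16%) higher. The 2 libraries at 2 h differed from each other more than other pairs, with a chi-square per degree of freedom of 10.1 against 1.89 to 4.71, and a total of 10755624 counts in one against 18620373 in the other. Without 2 h replicate 1 the counts were 691 and 698. The 1 h libraries enter both these comparisons and that with the controls, so a gene chosen as high at 1 h tends to be lower in other libraries, and values are given side by side.

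Tiparp, which was 2.24 higher at 1 h than in the controls, was lower at 2 h than at 1 h (log2 fold change -1.25, SE 0.07) and at 4 h (-1.83, SE 0.04). Fosl2 and Samd5, a SAM-domain gene, were lower at 2 h by log2 fold changes of -0.95 and -1.29. Cyp1a1 did not differ between 1 h and 2 h beyond its error (-0.23, SE 0.12, edgeR adjusted p = 0.61) and was lower at 4 h (-0.88, SE 0.11). Nqo1 was 0.43 higher at 4 h than at 1 h, and Gclc was 0.49 higher at 2 h and 0.82 at 4 h. Hmox1 and Pgd, of the pentose phosphate pathway, were 0.68 and 0.60 higher at 2 h. Trim16 was 0.79 higher at 4 h. Ahr and Wnt7a, both lower at 1 h than in the controls, were lower again, Ahr by log2 fold changes of -0.83 at 2 h and -1.37 at 4 h against 1 h, and Wnt7a by -1.36 and -2.03.

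St3gal1, a sialyltransferase, and Boc had small changes at 1 h (-0.17 and 0.17). The call of St3gal1 was lost with either control replicate left out, with the replicate block and in the fit over 6 libraries (edgeR adjusted p up to 0.34), and that of Boc in the fit over 6 libraries. Both were lower at 4 h than at 1 h, by log2 fold changes of -1.70 (SE 0.04) and -1.56 (SE 0.05). Tnfrsf21, which did not pass at 1 h against the controls, was lower at 2 h than at 1 h (-0.83, SE 0.09) and at 4 h (-1.51, SE 0.05). Fos was higher at 4 h than at 1 h (0.77, SE 0.08, edgeR adjusted p = 3.4e-08), while Egr1 (0.17) and Cnn2 (0.14) did not differ beyond their error. Cpne8, Vcl, Gli3 and Fbn2 are among the genes whose counts change with the 90 kb limit and have no value here.

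**Figure D5:**
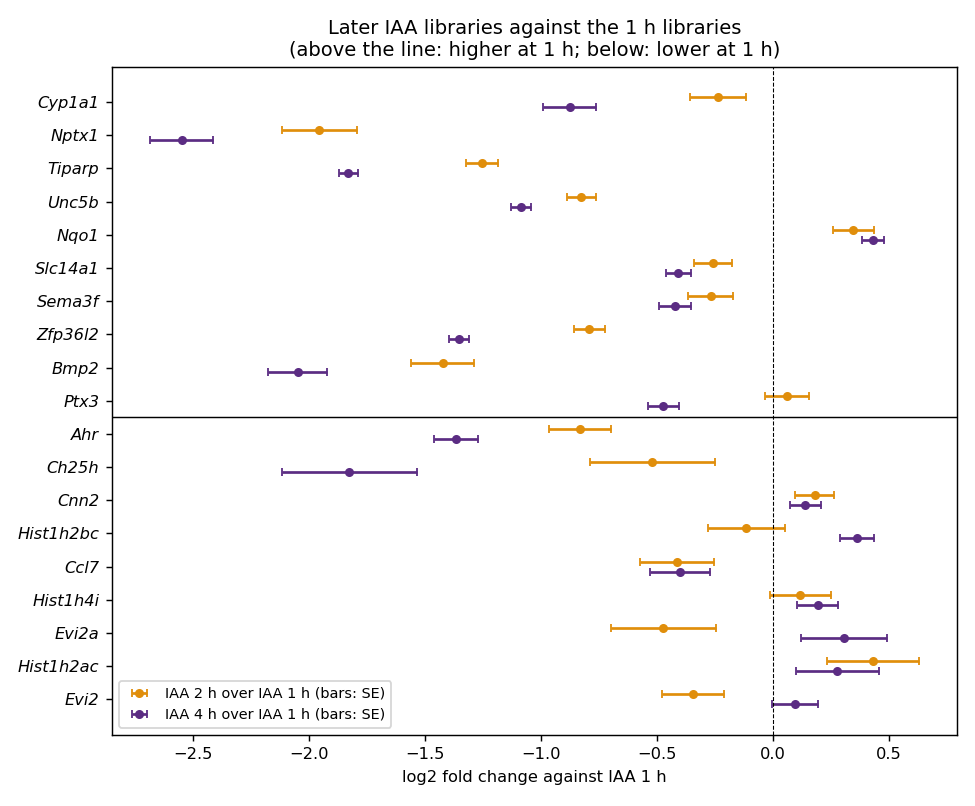
Log2 fold changes of the IAA 2 h (orange) and 4 h (purple) libraries over the IAA 1 h libraries, with SE bars, for those of the same 22 genes that could be compared in the same measure; genes above the line were higher and genes below it lower at 1 h than in controls. Nptx1, Tiparp and Bmp2 lie furthest to the left at 4 h (-2.55, -1.83 and -2.05), and Nqo1 lies to the right of 0 at both times.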

How the data were processed

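EU-seq values of NPCs are counts that the authors deposited without normalization. Per the labels and methods, reads were trimmed with Cutadapt, aligned to mm10 with BWA, filtered with SAMtools 1.4 and Bedtools (low mapping quality, rRNA and tRNA) and counted with HTSeq over the gene body of a representative transcript. The 62 count columns hold replicates apart, and 50 were not used here. Names and positions came from GENCODE M21, which matched 27455 of 27665 transcripts. All transcripts above the filter were tested, and in gene lists a symbol with several transcripts stands for the one with most counts. Intervals of counts cover counting error only.

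Genes with a mean count above 20 in either group were tested in R 4.3.3 with edgeR 4.0.16 (TMM, quasi-likelihood F test, two-sided, Benjamini-Hochberg adjustment over all tested genes), and the SE of a log2 fold change is its size before centring divided by the square root of F. DESeq2 1.42.0 was an alternative. In simulated data of 15815 genes for the comparison with controls, 89.8% of genes 2-fold lower and 96% of genes 2-fold higher passed. Of genes changed by 0.5 on the log2 scale 56% to 58% passed, and 1 of 15616 unchanged genes did. The simulation gave every gene the same dispersion and no library effect beyond depth, so these shares may not hold for the real libraries. Replicate numbers did not pair the libraries (correlation of deviations -0.08).

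Members, gene lists and tests were chosen with earlier results of these data known. Named genes are the 12 largest decreases and increases among expressed genes that passed without overlap between groups, up to 6 members of each list by p, the genes the study names for NPCs, and the 3 smallest p in each direction of a direct comparison. Others were named after their values were seen, and a few genes of the rule are not reported here. Promoters came from RefSeq (GRCm38.p6).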

Additional observations from a re-analysis of the deposited data

Results flagged for a closer look

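Genes among the 24 largest changes or named by the study for NPCs whose level after longer IAA treatment differed from that at 1 h, by edgeR's test of the difference itself, are given here. The 1 h libraries also served to choose the 24, and values are log2 fold changes over 1 h. Of genes that had risen at 1 h, Nptx1 changed by -1.95 at 2 h and -2.55 at 4 h, Tiparp by -1.25 and -1.83, Unc5b by -0.82 and -1.08, Zfp36l2 by -0.79 and -1.35, and Bmp2 by -1.42 and -2.05. At 4 h alone, Cyp1a1 changed by -0.88, Slc14a1 by -0.41, Sema3f by -0.42, Ptx3 by -0.47 and Nqo1 by 0.43. For these 5 the test at 2 h did not pass, and whether the 2 h and 4 h differences differ was not tested.

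Of genes that had fallen at 1 h, Ahr changed by -0.83 at 2 h and -1.37 at 4 h. At 4 h alone, Ch25h changed by -1.82, Ccl7 by -0.40 and Hist1h2bc by 0.36, the last of these towards its control level. Of the genes the study names, Myc changed by -0.57 at 2 h and -0.82 at 4 h, Kitl by -0.38 and -0.57, Enc1 by -0.80 and -1.04, Tnfrsf21 by -0.83 and -1.51, and Inhba by -0.74 and -2.23. The study chose these genes on libraries of this series.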

How the results depend on the processing

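The comparison of IAA 1 h with control was repeated under 12 alternatives. No named gene changed direction after passing. With DESeq2 488 genes were lower, 615 higher and 7 at least 2-fold lower; with a mean count above 100, 5 genes fell and 39 rose by 2-fold or more; and in the fit over 6 libraries 610 were lower and 769 higher. Leaving out each library in turn gave 708 to 1036 lower and 937 to 1240 higher genes, with 24 to 50 and 59 to 73 past 2-fold. The cause was not tested, and a lone library is assumed to vary like the other group. Replicate numbers only name the libraries, and with them as a replicate block 1032 genes were lower and 1198 higher.

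For A-485 against IAA 1 h, leaving out each library gave 4701 to 5561 lower and 3326 to 4965 higher genes. For 2 h against 1 h it gave 117 to 691 and 13 to 698, with 13 higher genes with DESeq2, 276 lower and 139 higher without a filter and 39 higher with the replicate block. For 4 h against 1 h it gave 1075 to 1457 and 697 to 1086, with 765 lower and 370 higher with DESeq2. Depth limits genes near 1 CPM, where 2-fold changes rest on few counts.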
